A study of Mus musculus with 6 samples.

Results

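The circadian clock and its output genes in epididymal white adipose tissue (eWAT) were examined as 10 genes, Clock, Npas2, Per2, Per3, Cry1, Cry2, Nr1d1, Nr1d2, Dbp and Tef, taken by gene symbol from the 40213 genes of the deposited table. All 10 were found and all 10 passed the filter on low counts that left 14706 genes for testing. The tissue came from 3 male RFP KO mice (RFP KO-HFD) and 3 male WT littermates (WT-HFD), 1 library per mouse. Both groups were put on a 60% high-fat diet (HFD) at 8 to 10 weeks of age and kept on it for 12 weeks. By the study's description the RFP KO is global and not limited to adipocytes, RFP being encoded by Trim27, whose level in each library is given below. The labels call the sample adipocytes, but whole fat pads also hold vascular, immune and mesothelial cells. The hour at which each mouse was killed is not given in the sources used here.

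The libraries held between 4870239 and 17215047 counts. The lowest total belonged to the RFP KO-HFD 1-labelled library, which stood furthest from the rest. It had no count for Adipoq or Plin1, both defining genes of adipocytes. These were 2 of 8 listed adipocyte genes, which together still took 1.20% of its counts, against 1.66% to 2.79% in the other libraries. In the same library 10 hepatocyte genes took 2.67% of the counts. These genes also took more in RFP KO-HFD 2 and 3 (0.0648% and 0.120%) than in WT-HFD (0.0104% to 0.0172%), and macrophage genes took less (0.0695% and 0.0279%, against 0.0892% to 0.225% in WT-HFD). RFP KO-HFD 3 had 16396 genes with a count and a TMM factor of 0.683, against 20203 genes and 0.986 in RFP KO-HFD 2 and at least 20046 genes and 1.114 in WT-HFD. The part of these differences in the results below was not tested. Trim27 was at 19.4, 4.10 and 4.63 CPM (counts scaled to library size after TMM normalization) in RFP KO-HFD 1, 2 and 3, against 22.7, 40.2 and 29.5 CPM in WT-HFD 1, 2 and 3, so this library did not show the low Trim27 of the other 2 RFP KO-HFD libraries. In WT-HFD 2, smooth muscle genes took 2.20% of the counts and genes of the epididymis 0.109%, against at most 0.114% and 0.000596% in the other 5 libraries. The fold change of each member is therefore given with and without the RFP KO-HFD 1-labelled library.

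The clock is a loop of transcription. CLOCK, or its relative NPAS2, pairs with BMAL1 on E-box sequences and switches on the Per and Cry genes, whose proteins gather and shut the pair off. In a second loop the same pair drives Nr1d1 and Nr1d2, which encode the repressors REV-ERB alpha and beta, and these repress Bmal1, Clock and Npas2. Dbp and Tef, transcription factors of the PAR bZIP family, carry the rhythm to output genes through D-box sequences. In mouse peripheral tissues, fat included, Bmal1 and Npas2 mRNA peaks around the end of the night, Nr1d1 mRNA near the middle of the day, Dbp and Per3 mRNA later in the day and Per2 mRNA around dusk, so the balance between these genes moves with the time of day.

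The sequences that these factors read are visible before the start sites of several members. In the RefSeq tables of build GRCm38.p6, 9 of the 10 members had a promoter entry, and the 250 bases before each start were searched on both strands for the E-box CACGTG, the related CACGTT, the D-box TTATGNAA and the REV-ERB and ROR elements TAGGTCA and TGGGTCA. No member window held either of the last 2. The 4 windows below, written 5′ to 3′ on the strand of the gene with the matches in capitals, hold E-box, CACGTT and D-box matches of the members. The windows of Cry2 and of a second Tef start, which also hold matches, are left out. Those shown belong to Per3 (chr4:151044666-151044915, minus strand), Nr1d1 (chr11:98775378-98775627, minus strand), Tef (chr15:81802423-81802672, plus strand) and Cry1 (chr10:85185055-85185304, minus strand).
Per3: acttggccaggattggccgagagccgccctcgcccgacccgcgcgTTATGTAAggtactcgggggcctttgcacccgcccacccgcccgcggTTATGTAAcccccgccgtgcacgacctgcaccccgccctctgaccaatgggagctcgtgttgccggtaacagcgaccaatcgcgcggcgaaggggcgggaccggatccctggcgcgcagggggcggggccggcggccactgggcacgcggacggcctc
Nr1d1: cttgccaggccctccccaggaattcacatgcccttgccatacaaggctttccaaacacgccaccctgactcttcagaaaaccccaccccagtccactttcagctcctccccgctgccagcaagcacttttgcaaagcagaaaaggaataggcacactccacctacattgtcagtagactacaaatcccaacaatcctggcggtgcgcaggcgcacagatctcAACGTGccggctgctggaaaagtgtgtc
Tef: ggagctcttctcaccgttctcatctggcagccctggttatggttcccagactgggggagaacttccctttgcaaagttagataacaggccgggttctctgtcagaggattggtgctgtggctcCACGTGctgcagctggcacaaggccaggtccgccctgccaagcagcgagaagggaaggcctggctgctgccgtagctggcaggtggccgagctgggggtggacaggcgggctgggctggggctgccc
Cry1: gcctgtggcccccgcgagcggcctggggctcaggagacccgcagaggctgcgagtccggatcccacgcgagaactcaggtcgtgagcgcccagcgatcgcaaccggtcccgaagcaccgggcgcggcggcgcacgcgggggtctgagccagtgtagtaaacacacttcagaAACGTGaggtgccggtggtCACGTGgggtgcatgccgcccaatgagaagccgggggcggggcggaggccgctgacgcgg
Per3 had 2 D-boxes, whose first bases lay at -205 and -158 from the start, where 3.07% of 32851 promoter windows held at least 1. Tef had an E-box at -127, and another at -138 before its second start. Cry1 had an E-box at -60, and this sequence was found in 6.02% of windows. Clock and Tef had more starts searched than the other members, while the shares are per window. Nr1d1, at -28, Cry1, at -79, and Cry2, at -166, had CACGTT or its reverse complement, found in 3.85% of windows. No match was found in the windows of Clock, Npas2, Nr1d2 and Dbp. A match describes the letters alone.

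With all 6 libraries no clock gene passed the test between the genotypes after adjustment, although the groups of some did not overlap. In edgeR (quasi-likelihood test, adjusted after Benjamini and Hochberg), 0 of the 10 members reached an adjusted p under 0.05, nor did any of the 14706 genes (0%), and the adjusted p of the members ran between 0.777 for Cry1 and 0.997 for Per3. At an unadjusted p under 0.05 there were 0 members, against 6.75% of all genes (4.05% higher, 2.7% lower). No member passed after adjustment with DESeq2, limma-voom or limma-voom with quality weights either, where 464, 0 and 1039 genes in all passed. At an unadjusted p under 0.05 there were 1, 0 and 3 members with these tools. The share of all genes at that p was not computed for them, so these counts cannot be read as high or low. Of the members, 3 were higher and 7 lower in RFP KO-HFD by fitted fold change, with a median log2 fold change of -0.22, beside -0.13 over all genes tested. Of the 10, 3 (Cry1 higher, Clock and Nr1d1 lower) had groups that did not overlap, against 23.3% of all genes (7.28% higher and 16% lower). Cry1 was lost from these when library totals replaced TMM. Since these are whole fat pads, fewer cells of a type and less mRNA per cell cannot be told apart.

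Without the RFP KO-HFD 1-labelled library none of the members passed after adjustment either, and those at an unadjusted p lay in both directions. Per2 and Dbp (higher) and Nr1d1 and Nr1d2 (lower) were at an unadjusted p under 0.05 in edgeR, 4 of 10 against 24.7% of 15606 genes (12.1% higher and 12.6% lower). After adjustment 0 members passed, against 2 genes in all (0.0128%). The groups of 7 members did not overlap, 4 higher and 3 lower, against 45.3% of all genes (21.1% higher and 24.2% lower). Genes at large were thus also often apart in this setting. The median log2 fold change was 0.17 for the members and -0.07 for all genes. In this setting 2 RFP KO-HFD libraries were set against 3 WT-HFD libraries.

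**Figure D1:**
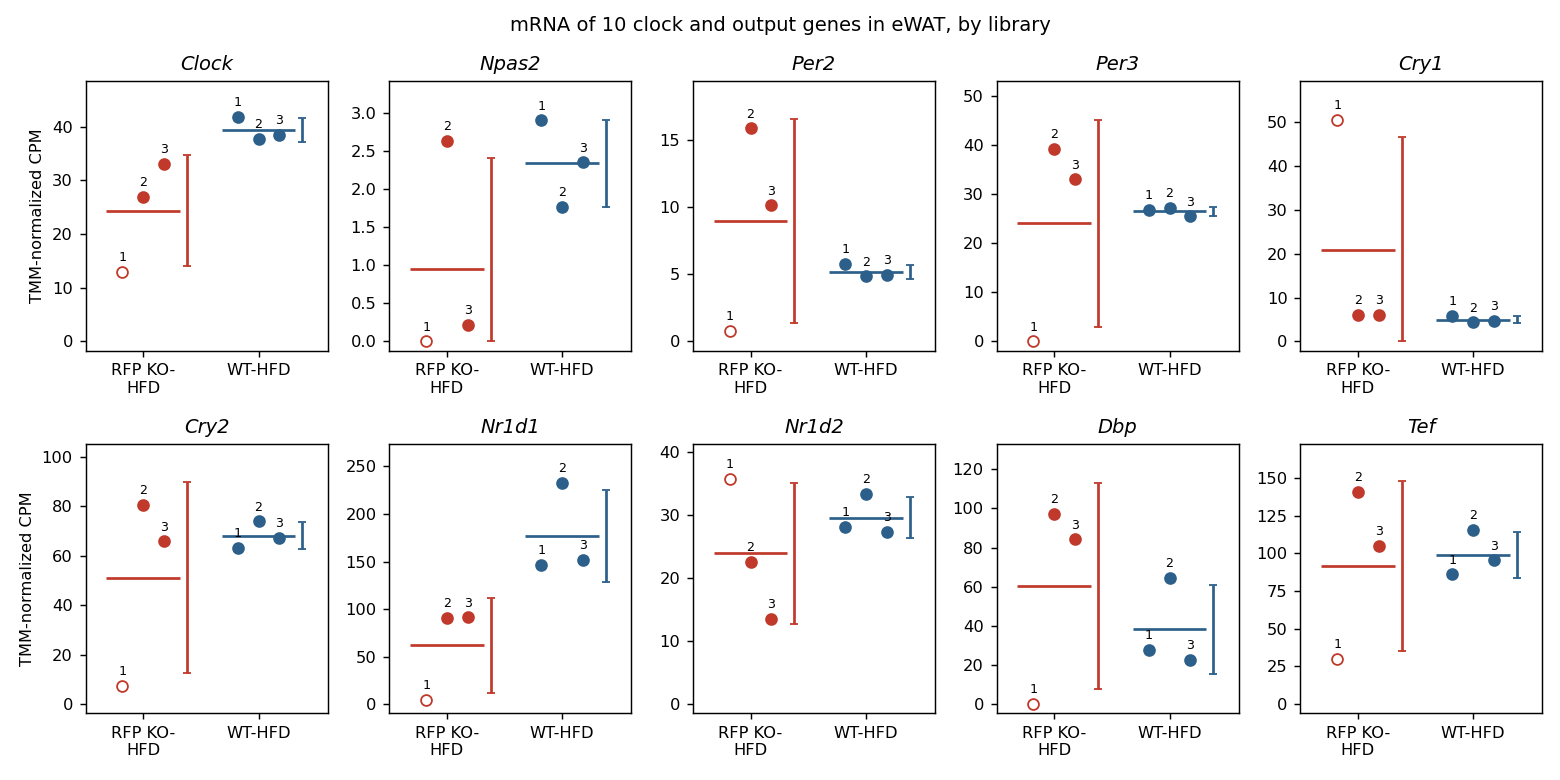
TMM-normalized CPM (vertical axes, which differ in scale) of the 10 genes in RFP KO-HFD and WT-HFD eWAT, where each point is 1 library with its replicate number, the open point is the RFP KO-HFD 1-labelled library, the line is the group mean and the bar its SD (n = 3, cut at 0). That library had no count for Npas2, Per3 and Dbp and the highest values of Cry1 and Nr1d2, while RFP KO-HFD 2 and 3 lay below every WT-HFD library for Clock, Nr1d1 and Nr1d2 and above them for Per2, Per3, Cry1 and Dbp.

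Of the positive limb, Clock was lower in every RFP KO-HFD library. Clock (chr5:76357715-76452675, minus strand, by the GRCm39 coordinates of the deposited table, as for the other members below), a histone acetyltransferase and DNA-binding partner of BMAL1, was at 12.9, 27.0 and 33.0 CPM in RFP KO-HFD, against 41.9, 37.7 and 38.4 CPM in WT-HFD. The groups did not overlap, with a mean ± SD of 24.3 ± 10.3 CPM in RFP KO-HFD and 39.3 ± 2.21 CPM in WT-HFD (n = 3 each), whose libraries lay close together. The log2 fold change was -0.69 (standard error 0.454, edgeR adjusted p = 0.864), and -0.41 (standard error 0.192, edgeR adjusted p = 0.253) without the RFP KO-HFD 1-labelled library. Npas2 (chr1:39233013-39402321, plus strand), the partner that can stand in for CLOCK, was rare, with 0, 36 and 2 counts in RFP KO-HFD, against 53, 31 and 45 counts in WT-HFD. RFP KO-HFD 2, at 2.63 CPM, lay inside the WT-HFD range of 1.76 to 2.90 CPM, while RFP KO-HFD 3, at 0.220 CPM, lay well under it. At this depth 3 counts correspond to 0.607 CPM in the RFP KO-HFD 1-labelled library and to 0.157 to 0.330 CPM in the others, so that RFP KO-HFD 3 was also under its own limit. The log2 fold change of Npas2 was -1.23 (standard error 1.41, edgeR adjusted p = 0.942), -0.70 (standard error 0.971) when the RFP KO-HFD 1-labelled library was left out, and -4.05 without RFP KO-HFD 2.

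Among the repressors of CLOCK and BMAL1, Per2 and Per3 were at higher values in RFP KO-HFD 2 and 3 than in WT-HFD and at or near 0 in the RFP KO-HFD 1-labelled library. Per2 (chr1:91343699-91387072, minus strand), whose protein sets the timing of the repressing complex, was at 0.809, 15.9 and 10.1 CPM in RFP KO-HFD, against 5.80, 4.84 and 4.96 CPM in WT-HFD. With all libraries the groups overlapped, since the first RFP KO-HFD value lay under and the others lay above all WT-HFD values. The log2 fold change was 0.79 (standard error 1.06, edgeR adjusted p = 0.948), and 1.31 (standard error 0.3205, edgeR adjusted p = 0.109) without the RFP KO-HFD 1-labelled library and 0.14 without RFP KO-HFD 2. Per3 (chr4:151081475-151129167, minus strand), the Per gene with the 2 D-boxes printed above, had no count in that library and was at 39.2 and 33.0 CPM in RFP KO-HFD 2 and 3, against 26.9, 27.1 and 25.5 CPM in WT-HFD. Its log2 fold change was -0.13 (standard error 1.43, edgeR adjusted p = 0.997) with all libraries and turned to 0.43 (standard error 0.181, edgeR adjusted p = 0.213) without that one.

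Cry1 and Cry2, the cryptochromes that bind CLOCK and BMAL1 and block them, went separate ways in the RFP KO-HFD 1-labelled library alone. Cry1 (chr10:84967564-85020918, minus strand) was at 50.5, 5.997 and 6.06 CPM in RFP KO-HFD, against 5.91, 4.33 and 4.70 CPM in WT-HFD. The first of these stood far above the other 5, and RFP KO-HFD 2 and 3 lay just above WT-HFD 1. The log2 fold change of Cry1 was 2.06 (standard error 1.01, edgeR adjusted p = 0.777), the largest of the 10, and 0.26 (standard error 0.350, edgeR adjusted p = 0.674) without that library. Cry2 (chr2:92233991-92264426, minus strand) was at 7.28, 80.5 and 65.7 CPM in RFP KO-HFD, against 63.0, 73.9 and 67.3 CPM in WT-HFD. RFP KO-HFD 2 and 3 lay within or just above the WT-HFD values, with a log2 fold change of 0.089 (standard error 0.187) without the RFP KO-HFD 1-labelled library and -0.41 (standard error 0.784, edgeR adjusted p = 0.963) with it. There were 6.94 Cry1 counts per Cry2 count in that library, against 0.0745 and 0.0921 in RFP KO-HFD 2 and 3 and 0.0586 to 0.0938 in the WT-HFD libraries. Whether the hepatocyte transcripts of that library take part in its Cry1 level was not tested.

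The REV-ERB pair was lower in RFP KO-HFD 2 and 3 than in WT-HFD. Nr1d1 (chr11:98658758-98666233, minus strand) was at 4.25, 90.6 and 91.2 CPM in RFP KO-HFD, against 146, 233 and 151 CPM in WT-HFD. The groups did not overlap, and RFP KO-HFD 2 and 3 were nearly alike. Means ± SD were 62.0 ± 50.0 CPM in RFP KO-HFD and 177 ± 48.8 CPM in WT-HFD (n = 3 each). The log2 fold change was -1.51 (standard error 0.979, edgeR adjusted p = 0.86), and -0.97 (standard error 0.265, edgeR adjusted p = 0.122) without the RFP KO-HFD 1-labelled library. Nr1d1 shares 1075 bases with Thra, the gene of thyroid hormone receptor alpha on the opposite strand, and whether the counting used strand is not stated, so some reads could belong to either. The same holds for Npas2, Per2, Per3 and Cry2, which overlap Gm53549, Gm35591, Uts2 and D930015M05Rik on the opposite strand. There were 0.244, 0.599 and 0.633 Nr1d1 counts per Thra count in RFP KO-HFD, against 1.24, 1.25 and 1.21 in WT-HFD. Thra itself was at 151 and 144 CPM in RFP KO-HFD 2 and 3, inside the WT-HFD range of 118 to 187 CPM. Nr1d2 (chr14:4230549-4265640, plus strand) was at 35.8, 22.5 and 13.5 CPM in RFP KO-HFD, against 28.1, 33.4 and 27.4 CPM in WT-HFD. Here the RFP KO-HFD 1-labelled library had the highest value of all and the other 2 the lowest, so that the groups overlapped, and the log2 fold change was -0.31 (standard error 0.477, edgeR adjusted p = 0.955) with it and -0.73 (standard error 0.279, edgeR adjusted p = 0.186) without it. Leaving out RFP KO-HFD 3 gave -0.058.

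Of the PAR bZIP factors, Dbp was at higher values in RFP KO-HFD 2 and 3 than in any WT-HFD library. Dbp (chr7:45354658-45359579, plus strand) had no count in the RFP KO-HFD 1-labelled library and was at 97.1 and 84.1 CPM in RFP KO-HFD 2 and 3, against 27.7, 64.4 and 22.7 CPM in WT-HFD. WT-HFD 2, the library with smooth muscle and epididymal transcripts, lay between the other WT-HFD libraries and RFP KO-HFD. For Dbp the log2 fold change was 0.66 (standard error 1.57, edgeR adjusted p = 0.968), and 1.23 (standard error 0.457, edgeR adjusted p = 0.178) without the RFP KO-HFD 1-labelled library. It was 0.19 without RFP KO-HFD 2 and 1.25 without WT-HFD 2. With WT-HFD 2 left out as well, 2 libraries against 2, it was 1.84 (edgeR adjusted p = 0.0402), the only case in which a member passed, in a fit that called 507 genes. Over the alternatives the adjusted p of Dbp was no lower than this, and its direction turned with limma-voom (-0.63) and with the replicate number as a block (-0.35). Dbp shares 693 bases with Sphk2 on the opposite strand, a gene at 38.8 and 50.0 CPM in RFP KO-HFD 2 and 3, against 42.8 to 61.1 CPM in WT-HFD. Tef (chr15:81686874-81711064, plus strand), with the E-box printed above, was at 29.9, 141 and 105 CPM in RFP KO-HFD, against 86.1, 115 and 95.4 CPM in WT-HFD. RFP KO-HFD 3 lay inside the WT-HFD values and RFP KO-HFD 2 above them, and the log2 fold change was -0.11 (standard error 0.575, edgeR adjusted p = 0.989), or 0.30 (standard error 0.224, edgeR adjusted p = 0.445) without the RFP KO-HFD 1-labelled library.

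**Figure D2:**
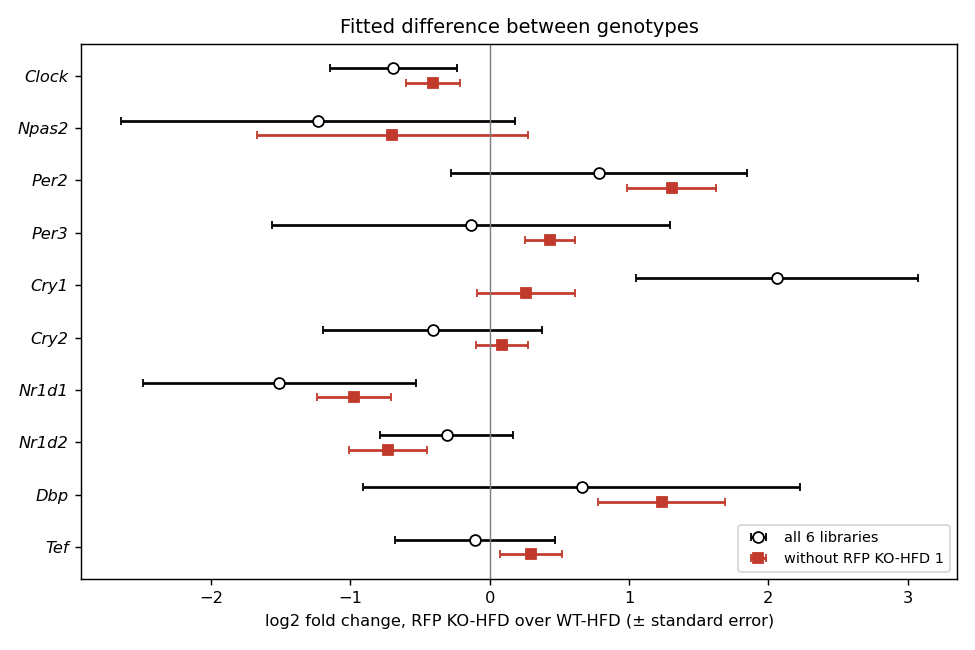
Fitted log2 fold change of RFP KO-HFD over WT-HFD (horizontal axis, bars are 1 standard error) for the 10 genes, with all 6 libraries (open circles) and without the RFP KO-HFD 1-labelled library (squares). Per3, Cry2 and Tef change side without that library, Cry1 moves to 0.26 from 2.06, and the standard errors shrink.

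The absence of Npas2, Per3 and Dbp in the RFP KO-HFD 1-labelled library has to be read against its other missing genes. No count was found there for 816 (12.3%) of the 6634 genes that reached 10 CPM of library totals in all 5 others. Among the members, 6 (Clock, Per3, Cry2, Nr1d1, Dbp and Tef) were at that level, and 2 of them, Per3 and Dbp, had no count. All the same, Nr1d2, Cry1 and Per1, the Per gene outside the 10, were present in it at 177, 250 and 220 counts. The part of the missing transcripts in the differences above was not tested.

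Genes that peak at opposite times of day were then compared within each library. The mean log2(CPM + 1) of Npas2 and Clock less that of Dbp, Nr1d1 and Per3, a difference in which library scaling nearly cancels, was 1.10, -2.82 and -3.32 in RFP KO-HFD, against -1.92, -2.87 and -1.99 in WT-HFD. The value of the RFP KO-HFD 1-labelled library rests on the missing Dbp and Per3 and on a low Nr1d1 (4.25 CPM). Npas2 had no count there either. RFP KO-HFD 2 lay within the WT-HFD range, next to WT-HFD 2. The group means were -1.68 ± 2.42 in RFP KO-HFD and -2.26 ± 0.53 in WT-HFD (SD, n = 3 each), a difference of 0.58 on the log2 scale that became -0.81 without the RFP KO-HFD 1-labelled library. The genotypes thus overlapped in this measure with all libraries and without that one. With Tef, Nr1d2 and Per2 added to the later genes the difference was -0.057. The measure sets Nr1d1 on the side of Dbp and Per3, although these members lay on opposite sides of WT-HFD in RFP KO-HFD 2 and 3.

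Ratios of single genes describe these values within a library. The pairs were chosen after the values were seen, a gene at lower values over one at higher values in RFP KO-HFD 2 and 3 in most of them, so their direction was set by the choice and adds no support. There were 0.933 and 1.08 Nr1d1 counts per Dbp count in RFP KO-HFD 2 and 3, against 5.28, 3.62 and 6.66 in WT-HFD. There were 0.688 and 1.0 Clock counts per Per3 count in RFP KO-HFD 2 and 3, against 1.56, 1.39 and 1.51 in WT-HFD. Neither ratio exists in the RFP KO-HFD 1-labelled library, and in both RFP KO-HFD 2 and 3 lay below every WT-HFD library. Counts are not corrected for gene length, so only the change of a ratio between libraries can be read. Nr1d1 counts per Per2 count numbered 5.25, 5.71 and 9.0 in RFP KO-HFD, against 25.2, 48.2 and 30.5 in WT-HFD, the first of them from only 21 and 4 counts. Clock counts per Dbp count stood at 0.278 and 0.393 in RFP KO-HFD 2 and 3, against 1.51, 0.586 and 1.69 in WT-HFD, where WT-HFD 2 was again nearest to RFP KO-HFD. In RFP KO-HFD 2 and 3, Dbp, Per3, Per2, Nfil3 and, only just, Cry1 were above every WT-HFD library. Bmal1, Clock, Nr1d1 and Nr1d2 were below, and Npas2, Cry2 and Tef overlapped. Nr1d1 and Nr1d2 thus lay on the other side of WT-HFD from Dbp and Per3. Nfil3 lay on the same side as Dbp. Since the hour of sampling is not given, an effect of the hour and an effect of genotype cannot be told apart.

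**Figure D3:**
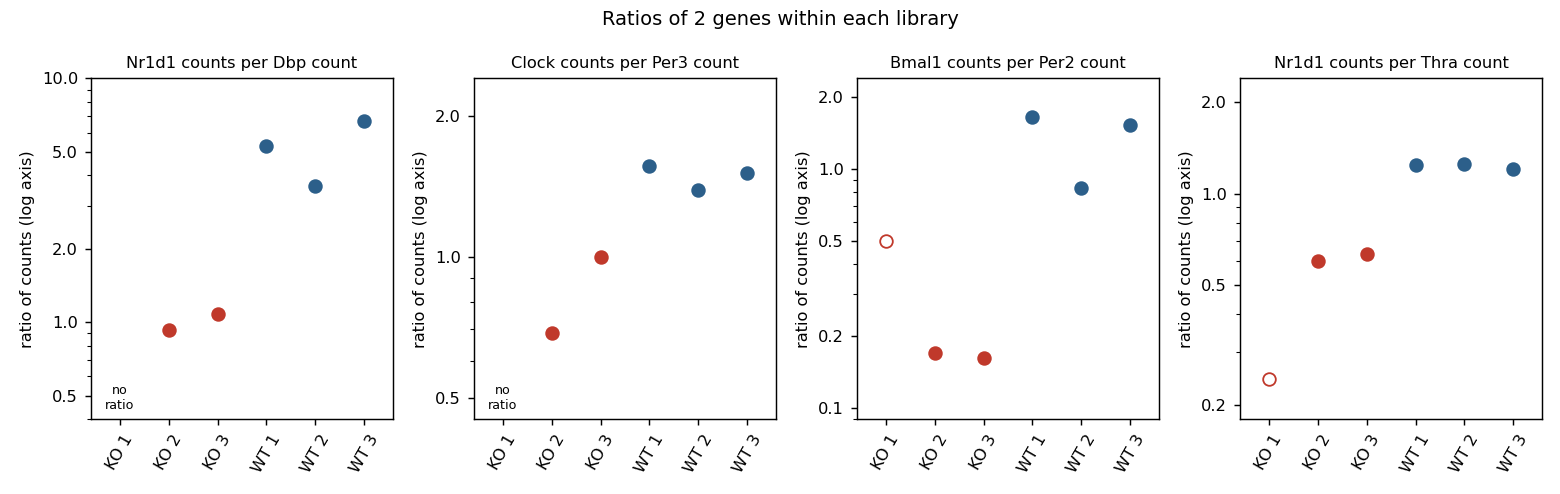
Counts of 1 gene per count of another in each library (vertical axes, log scale) for Nr1d1 and Dbp, Clock and Per3, Bmal1 and Per2, and Nr1d1 and Thra, with RFP KO-HFD libraries in red, WT-HFD libraries in blue and the RFP KO-HFD 1-labelled library open or, where the second gene had no count, without a ratio. The pairs were picked after the values were seen, and in all 4 panels RFP KO-HFD 2 and 3 lie below the 3 WT-HFD libraries.

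The rest of the clock pathway, 44 further genes, was counted in the same way. Of the 43 tested, 24 were higher and 19 lower in RFP KO-HFD by fitted fold change, with a median log2 fold change of 0.090. In edgeR 1 higher (Timeless) and 2 lower (Gsk3b and Ppp1cb) were at an unadjusted p under 0.05, against 6.75% of all genes, and none passed after adjustment. Leaving out the RFP KO-HFD 1-labelled library made these 10 and 8, against 24.7% of all genes. Bmal1, the partner of CLOCK that REV-ERB represses, was at 0.404, 2.71 and 1.65 CPM in RFP KO-HFD, against 9.58, 4.04 and 7.57 CPM in WT-HFD. Every RFP KO-HFD library lay below every WT-HFD library, with 2, 37 and 15 counts in RFP KO-HFD, the first of them under the limit of 3 counts. The log2 fold change was -2.12 (standard error 0.991, edgeR adjusted p = 0.77), and -1.70 (standard error 0.544, edgeR adjusted p = 0.146) without the RFP KO-HFD 1-labelled library. Bmal1 and its repressor gene Nr1d1 were thus both at lower values. There were 0.5, 0.171 and 0.163 Bmal1 counts per Per2 count in RFP KO-HFD, against 1.65, 0.835 and 1.53 in WT-HFD. The first of these came from only 2 and 4 counts, and this pair too was chosen after the values were seen. Per1 was at 44.5, 91.6 and 49.0 CPM in RFP KO-HFD, against 50.1, 51.5 and 54.9 CPM in WT-HFD, so that it was high in RFP KO-HFD 2 alone. Bhlhe41, which encodes the E-box repressor DEC2, was not counted in the RFP KO-HFD 1-labelled library and was at 15.4 and 5.07 CPM in RFP KO-HFD 2 and 3, against 25.5, 36.1 and 24.7 CPM in WT-HFD.

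Of the factors that share binding sites with REV-ERB or DBP, Nfil3 lay higher in every RFP KO-HFD library. Nfil3, a repressor that competes with DBP for the D-box, was at 13.1, 14.9 and 19.3 CPM in RFP KO-HFD, against 7.005, 3.13 and 6.53 CPM in WT-HFD, a log2 fold change of 1.51 (standard error 0.645, edgeR adjusted p = 0.75). Nfil3 and Dbp were both above WT-HFD in RFP KO-HFD 2 and 3. Rora was at 41.0, 75.0 and 56.3 CPM in RFP KO-HFD, against 44.2, 35.1 and 42.0 CPM in WT-HFD. Hlf, the third PAR bZIP factor, was at 0.607, 8.41 and 3.52 CPM in RFP KO-HFD, against 3.06, 17.02 and 2.04 CPM in WT-HFD, and its highest value belonged to WT-HFD 2. Of the genes at an unadjusted p under 0.05 in edgeR, Gsk3b, a kinase of clock proteins, was at 25.3, 39.9 and 44.8 CPM in RFP KO-HFD, against 79.2, 68.0 and 74.3 CPM in WT-HFD, and Ppp1cb, a catalytic subunit of protein phosphatase 1, was at 59.8, 39.6 and 49.8 CPM in RFP KO-HFD, against 101, 120 and 108 CPM in WT-HFD. Timeless, which acts at replication forks, was at 8.69, 11.3 and 18.1 CPM in RFP KO-HFD, against 4.76, 3.02 and 3.86 CPM in WT-HFD.

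**Figure D4:**
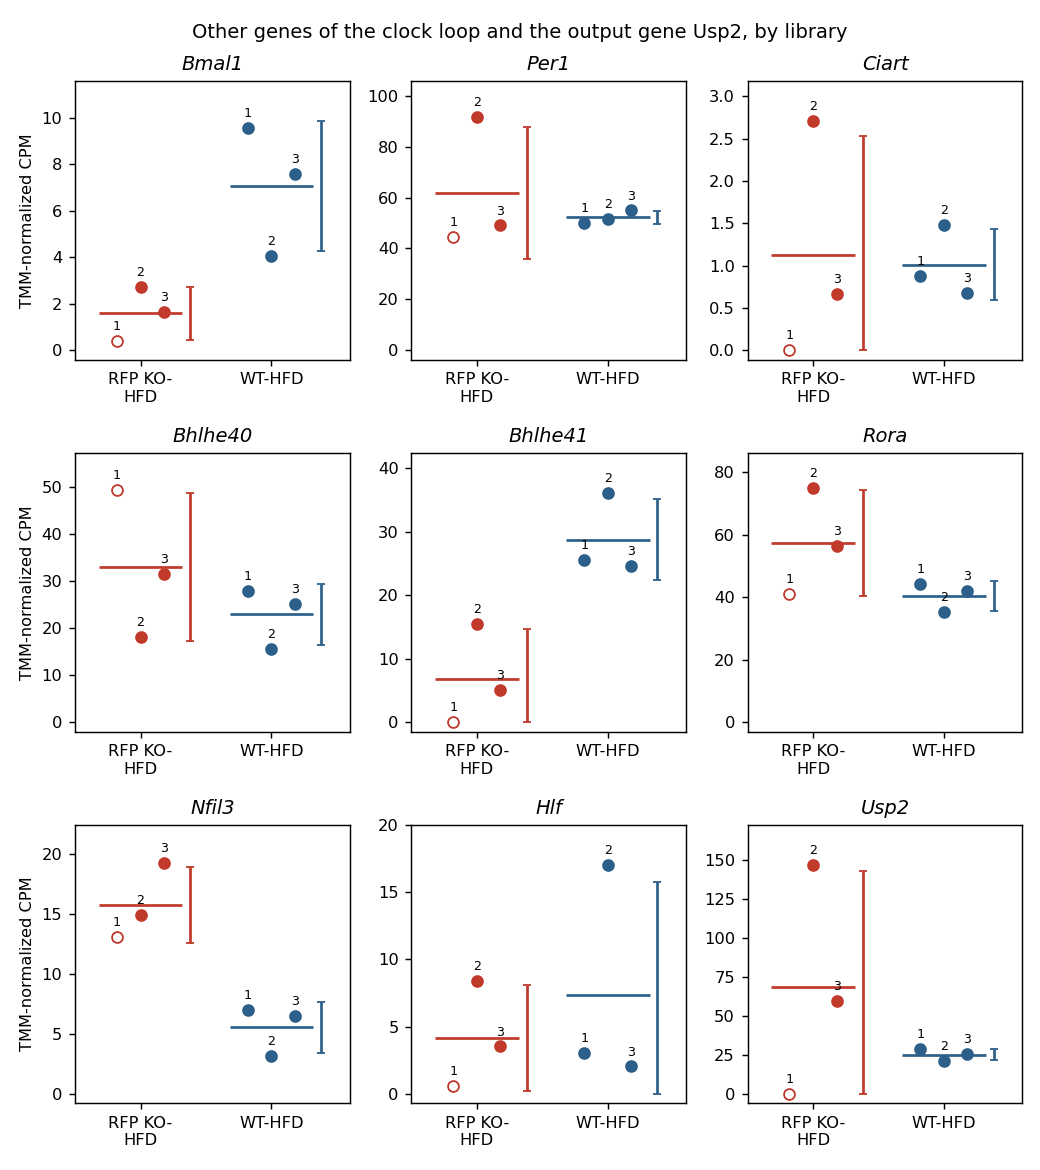
TMM-normalized CPM (vertical axes, which differ in scale) of 8 further clock genes and the output gene Usp2 in RFP KO-HFD and WT-HFD eWAT, drawn as points per library with the group mean (line) and SD (bar, n = 3, cut at 0), the open point being the RFP KO-HFD 1-labelled library. Bmal1 and Bhlhe41 lie lower and Nfil3 higher in all 3 RFP KO-HFD libraries, but RFP KO-HFD 1 has no Bhlhe41 count and only 2 Bmal1 counts. Usp2 is at 147 and 59.7 CPM in RFP KO-HFD 2 and 3, above WT-HFD, and has no count in RFP KO-HFD 1.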

How the data were processed

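The mRNA of eWAT was sequenced from 3 RFP KO-HFD and 3 WT-HFD mice. By the study's methods, Trizol RNA went through poly(A) selection and the CORALL kit into paired-end reads of 100 bases, trimming used Fastp, mapping STAR and quantification Salmon. The submitters' notes list Trimmomatic, FastQC, STAR and mm10 instead, the labels also mention removal of ribosomal RNA, and GRCm39 is named in the workbook itself, while tool versions are not given in the sources used here. Whole-number counts were deposited by the authors per gene and library, and beside them log2 values of TMM-normalized CPM plus 1, which were not used for any result. The fold changes, p-values and q-values of the deposited table were not used.

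Counts were filtered with filterByExpr (min.count 10, min.total.count 15) and tested in R 4.3.3 with edgeR 4.0.16 (TMM, glmQLFit and glmQLFTest, robust), with genotype as the only term, all 6 libraries in the fit and Benjamini-Hochberg adjustment over all genes tested. Each script's test was checked on simulated counts. The alternatives comprised limma 3.58.1 (voom alone or with quality weights), DESeq2 1.42.0, RLE, library totals, no filter, at least 10 counts in every library, the replicate number as a block, and libraries left out. CPM are TMM-normalized unless stated otherwise and are not corrected for gene length. A count of 0 was read against a limit of 3 counts, which covers counting error only. The members, the lists and the rule for named genes (all members, core loop, ROR and D-box factors, other pathway genes at an unadjusted p under 0.05, Trim27, defining markers, and the genes most like Dbp and Npas2 in pattern) were chosen with earlier results of these data known, and the ratios of single genes after the values were seen. One listed pathway gene is not reported here and was left out of the counts. Thra and Sphk2 were added because they overlap members. Each mouse gave 1 library, and the replicate numbers were not taken to pair the mice. Promoter sequences are from RefSeq.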

Additional observations from a re-analysis of the deposited data

How the results depend on the processing

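Over the alternatives, 133 fitted values of single members kept their direction and stayed short of the adjusted threshold, 12 turned and 1, that of Dbp without RFP KO-HFD 1 and WT-HFD 2 (1.84), passed it. No member changed direction with RLE factors or library totals, although library totals moved the median over all genes to -0.50, against -0.13 with TMM. Directions that turned were those of Per3, Cry2 and Tef with quality weights (0.38, 0.089 and 0.35), without RFP KO-HFD 1 (0.43, 0.089 and 0.30) and without RFP KO-HFD 1 and WT-HFD 2 (0.46, 0.16 and 0.43), of Tef without WT-HFD 2 (0.0018), and of Dbp with limma-voom (-0.63) and the replicate block (-0.35); the cause was not tested. With 1 library left out Per3 ran between -0.62 and 0.43, Cry2 between -0.84 and 0.089 and Tef between -0.51 and 0.30, while Npas2 ran between -4.05 and -0.70, Per2 between 0.14 and 1.31, Dbp between 0.19 and 1.25, Nr1d2 between -0.73 and -0.058, Nr1d1 between -1.93 and -0.97, Clock between -1.01 and -0.41 and Cry1 between 0.26 and 2.50. The number of members at an adjusted p under 0.05 was 0 in every setting except without RFP KO-HFD 1 and WT-HFD 2, where it was 1.

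Over all genes, 464 passed with DESeq2, 1039 with quality weights, 507 without RFP KO-HFD 1 and WT-HFD 2, and 0 to 2 with 1 library left out. Members at an unadjusted p under 0.05 numbered 1 with DESeq2, 3 with quality weights, 1 with library totals, 4 without RFP KO-HFD 1 and WT-HFD 2, and 0 to 4 with 1 library left out. For the other clock genes, 3 in the reported fit, the numbers were 7 with DESeq2, 6 with limma-voom, 20 with quality weights, 5 with library totals, 5 with at least 10 counts in every library, 22 without both libraries, and 1 to 18 with 1 library left out. Among all genes, 6.75% were at that p in the reported fit and 24.7% without RFP KO-HFD 1, the setting of the 18. For the other settings this share was not computed, so their counts cannot be read as high or low. Members whose groups did not overlap numbered 3 to 7 with 1 library left out, 8 without both, and 2 with library totals, which lost Cry1. The 7 were found without RFP KO-HFD 1, where 45.3% of all genes did not overlap. For the other settings the share over all genes was not computed, and smaller groups overlap less often. These counts are therefore not read as results about the members. The antiphase difference ran between -0.81 and 1.40 with 1 library left out, was -1.11 without both, and was -0.057 with Tef, Nr1d2 and Per2 added to the later genes. With at least 10 counts in every library, Npas2, Per2, Per3 and Dbp could not be fitted.

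Same-numbered libraries deviated together with correlations across genes of 0.0428, 0.0473 and 0.0893, all under 0.1, so the numbers were not taken to pair the mice, although each library correlated best with its own number. The replicate block left 0 members at an unadjusted p under 0.05 and 2 of the other clock genes. The hepatocyte transcripts and missing genes of the library labelled RFP KO-HFD 1, its low depth and the design of 3 mice per group limit every comparison here.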

Other observations

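Output genes of the clock were listed beside the members. Of the 16, 10 were higher and 6 lower in RFP KO-HFD by fitted fold change, with 0 at an unadjusted p under 0.05 in edgeR. Without the RFP KO-HFD 1-labelled library, 7 higher and 2 lower were at an unadjusted p under 0.05, against 24.7% of all genes, and 0 at an adjusted p under 0.05. Usp2, a rhythmically expressed deubiquitinase, had no count in that library and was at 147 and 59.7 CPM in RFP KO-HFD 2 and 3, against 28.7, 21.3 and 25.4 CPM in WT-HFD, a log2 fold change of 2.02 without it (standard error 0.393, edgeR adjusted p = 0.0881). Fkbp5, a gene induced by glucocorticoids, was at 12.3, 292 and 201 CPM in RFP KO-HFD, against 84.7, 65.7 and 73.8 CPM in WT-HFD, and Tspan4 was at 13.5, 148 and 210 CPM in RFP KO-HFD, against 50.4, 45.5 and 66.5 CPM in WT-HFD. Wee1, a cell cycle kinase with E-box control that was picked after its values were seen, was at 0, 4.97 and 4.30 CPM in RFP KO-HFD, against 7.11, 13.8 and 6.47 CPM in WT-HFD. Fkbp5, Usp2 and Tspan4 thus lay above WT-HFD in RFP KO-HFD 2 and 3, and Wee1 below it. These examples are outside the rule for named genes. Fkbp5, Usp2 and Tspan4 had the lowest unadjusted p in edgeR of the 16 outputs without the RFP KO-HFD 1-labelled library. The 2 lower outputs at an unadjusted p under 0.05 in that setting were Gys2 and Leo1.

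The genes whose centred log2(CPM + 1) profile over the 6 libraries lay closest to that of Dbp were Phpt1, Sfrp5, Get4, Cdh13 and Mob2, at root mean square distances of 0.355 to 0.430. All 5 had by far their lowest value, 0 to 6.67 CPM, in the RFP KO-HFD 1-labelled library, so that library sets much of the likeness. Sfrp5, a secreted antagonist of Wnt signalling made by adipocytes, was at 6.67, 868 and 689 CPM in RFP KO-HFD, against 310, 465 and 372 CPM in WT-HFD. Closest to Npas2 were Plaat1, Il18r1, Ccsap, Grin2d and Rpl17-ps10, at distances of 0.0918 to 0.129, all of them low genes, for which distances on this scale are small by construction.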
